A study of Mus musculus with 14 samples.

Results

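Livers of mice labelled heterozygous for Pkd1 (Het) were compared with livers labelled wild type (WT), by RNA sequencing of whole tissue. The 4 Het and 6 WT libraries were taken by their genotype label, and make up 10 of the 14 libraries of the study. The other 4, labelled homozygous (Homo), entered the model fit and are quoted beside some results. All animals were littermates on normal chow, 1 library per numbered animal, and every genotype label, WT included, carries the word Cre. The sources used here name neither the allele nor the Cre driver and the cells it acts in, and give no age, sex or litter.

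Pkd1 encodes polycystin 1, a large membrane protein of the primary cilium and cell contacts that pairs with the calcium-permeable channel polycystin 2, the product of Pkd2. Loss of function in either gene causes autosomal dominant polycystic kidney disease, in which fluid-filled cysts form in the kidney and, from the bile ducts, in the liver. Patients inherit a single mutated copy, so the heterozygous state is the one that the disease starts from. In mouse the gene lies on chromosome 17, which also carries the major histocompatibility complex (H2).

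Total counts ran from 22833853 to 26245475 in the Het libraries and from 25238140 to 40925973 in the WT libraries, and were lower in Het on average (two-sided exact permutation test over 4 and 6 libraries, p = 0.0286). By the share of splits with an absolute difference as large the p was 0.0619, and the part of depth in the results below was not tested. The mitochondrial share of counts was 10.6% ± 0.580 (SD, n = 4) in Het and 11.1% ± 0.841 (SD, n = 6) in WT (exact permutation test, p = 0.314). The 10 hepatocyte markers examined, albumin among them, summed to between 73831 and 82437 CPM (counts scaled to the effective size of the library) in Het and between 75584 and 90223 CPM in WT. The root mean square distance between 2 libraries over all tested genes, in log2 CPM, had a median of 0.547 within Het, 0.535 within WT and 0.540 between a Het and a WT library. In bulk tissue, fewer cells of a type and less RNA per cell cannot be told apart.

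Pkd1 itself was little lower in Het. Its level was 31.6, 28.1, 32.6 and 36.7 CPM in the 4 Het libraries and between 31.4 and 37.7 CPM in the 6 WT libraries. Of the Het libraries 1 was below every WT library and the other 3 lay inside the WT range. The means were 32.2 ± 3.52 CPM (SD, n = 4) and 34.8 ± 2.77 CPM (SD, n = 6), a log2 fold change of -0.11 (SE 0.0791) that did not pass the test (edgeR quasi-likelihood test with Benjamini-Hochberg adjustment, adjusted p = 0.998; exact permutation test of CPM, p = 0.229). The Homo mean was 25.3 ± 1.51 CPM (SD, n = 4; log2 fold change -0.46 against the same WT libraries, edgeR adjusted p = 0.0246). The gene's counts sum reads over the whole gene, so they do not show how much of the transcript comes from an altered copy. Pkd2, the partner channel, was at 16.5, 13.3, 13.7 and 7.54 CPM in Het. In WT it was at 12.8 CPM in library 1 and between 19.0 and 22.3 CPM in the other 5, so the groups overlapped through that library. The log2 fold change was -0.60 (edgeR adjusted p = 0.998; exact permutation test of CPM, p = 0.0381, not adjusted). The Homo libraries ran from 6.84 to 23.4 CPM.

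Of 16201 genes tested, 9 rose in Het past an adjusted p of 0.05, which is 0.0556% of the genes tested, and 0 fell (0.0% in that direction; edgeR quasi-likelihood test, 374 genes or 2.31% lower at an unadjusted p under 0.05; DESeq2 called 7 lower and 25 higher). Chromosome 17 held 5 of the 9, among 753 tested genes (0.664%). The remaining 4 were among 15448 genes elsewhere or without a place in the annotation (0.0259%), and a refit without the chromosome 17 genes called the same 4. Most genes differed little. Over the 13081 genes with a mean of at least 1 CPM, the median absolute log2 fold change was 0.0846, against a median SE of 0.126, and 64 genes were past 1 in absolute value.

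The clearest difference was in Abca3, a lipid transporter of the ABC family known for filling the surfactant bodies of lung alveolar cells, whose gene stands 10 tested genes before Pkd1 on chromosome 17. Its level was 140.1, 142.1, 138.4 and 136.6 CPM in Het and between 52.9 and 60.4 CPM in WT. The groups stood far apart and the Het libraries were within a few percent of each other. Abca3 rose 2.45-fold (95% interval 2.26 to 2.65; log2 fold change 1.29, SE 0.0540; edgeR adjusted p = 4.75e-09), and its Homo mean was 210.0 ± 5.16 CPM (SD, n = 4).

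Most of the other genes among the 9 were poorly described gene models on chromosome 17 or processed copies elsewhere of genes that lie on chromosome 17. H2-Bl, a class I gene of the major histocompatibility complex, was at 12.9, 5.23, 8.28 and 6.98 CPM in Het and between 0.345 and 1.54 CPM in WT (log2 fold change 2.85, SE 0.333; edgeR adjusted p = 9.27e-04). Its transcript is 90.4% identical to that of H2-D1 over 87.8% of its length, and 90.1% identical to that of Gm8909 over 89.5%. The authors' counting could therefore split reads between such paralogs. Both were chosen after their values were seen. H2-D1 was at 239.9 CPM on average in both groups. Gm8909 averaged 0.675 CPM in Het and 0.0622 CPM in WT (log2 fold change 3.28, edgeR adjusted p = 0.0786).

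The gene models Gm10503, Gm10499 and Gm50252 were almost silent in WT. Gm10503 had 2 counts in all 6 WT libraries together, and 4.13, 2.14, 2.15 and 0.819 CPM in the 4 Het libraries (ratio of pooled CPM 209, 95% counting interval 57.1 to 1735; edgeR adjusted p = 8.12e-06). Gm10499 had 0 counts in WT and 49 in Het. Against a floor of 3 counts over the WT group, that is at least 31.1-fold higher (edgeR adjusted p = 0.00606). Gm50252, whose transcript matches that of its neighbour Btbd9 over 82.2% of its length, was at 1.503, 0.773, 0.557 and 0.474 CPM in Het and was detected in 1 of 6 WT libraries, at 0.146 CPM. Its adjusted p of 0.0323 (edgeR) passed 0.05 no longer in 8 of the 10 fits that left out 1 library each, where it ran up to 0.210.

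The 3 processed copies were Glo1-ps, Atp6v0c-ps2 and Rnps1-ps. Glo1-ps, on chromosome 2, was at 14.7, 6.46, 7.92 and 11.2 CPM in Het and between 0.341 and 0.805 CPM in WT (log2 fold change 4.17, SE 0.239; edgeR adjusted p = 2.22e-07). Atp6v0c-ps2 and Rnps1-ps, both on chromosome 6, had means of 1.29 and 1.49 CPM in Het against 0.0594 and 0.0447 CPM in WT (log2 fold changes 4.41 and 5.07; edgeR adjusted p = 1.92e-04 and 4.09e-04). Each transcript is over 99% identical to that of its parent on chromosome 17: 99.5% for Glo1, 99.8% for Atp6v0c and 99.4% for Rnps1, each over 100% of its length. Reads of a copy and its parent are therefore hard to separate, and these values are uncertain. Glo1, glyoxalase 1, which clears the sugar by-product methylglyoxal, was itself higher in all 4 Het libraries and is described below. The other 2 parents, chosen after their values were seen, were not higher: Atp6v0c, a proton channel subunit of the vacuolar ATPase, had means of 83.6 CPM in Het and 84.6 CPM in WT. Rnps1, a splicing factor, had means of 15.8 CPM in Het and 18.4 CPM in WT. The ninth gene, ENSMUSG00000121779, has no symbol or place in the annotation used. It was at 41.99, 41.2, 40.5 and 45.5 CPM in Het and between 7.99 and 16.2 CPM in WT (log2 fold change 1.74, SE 0.128; edgeR adjusted p = 4.95e-06), with a Homo mean of 75.2 CPM.

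**Figure D1:**
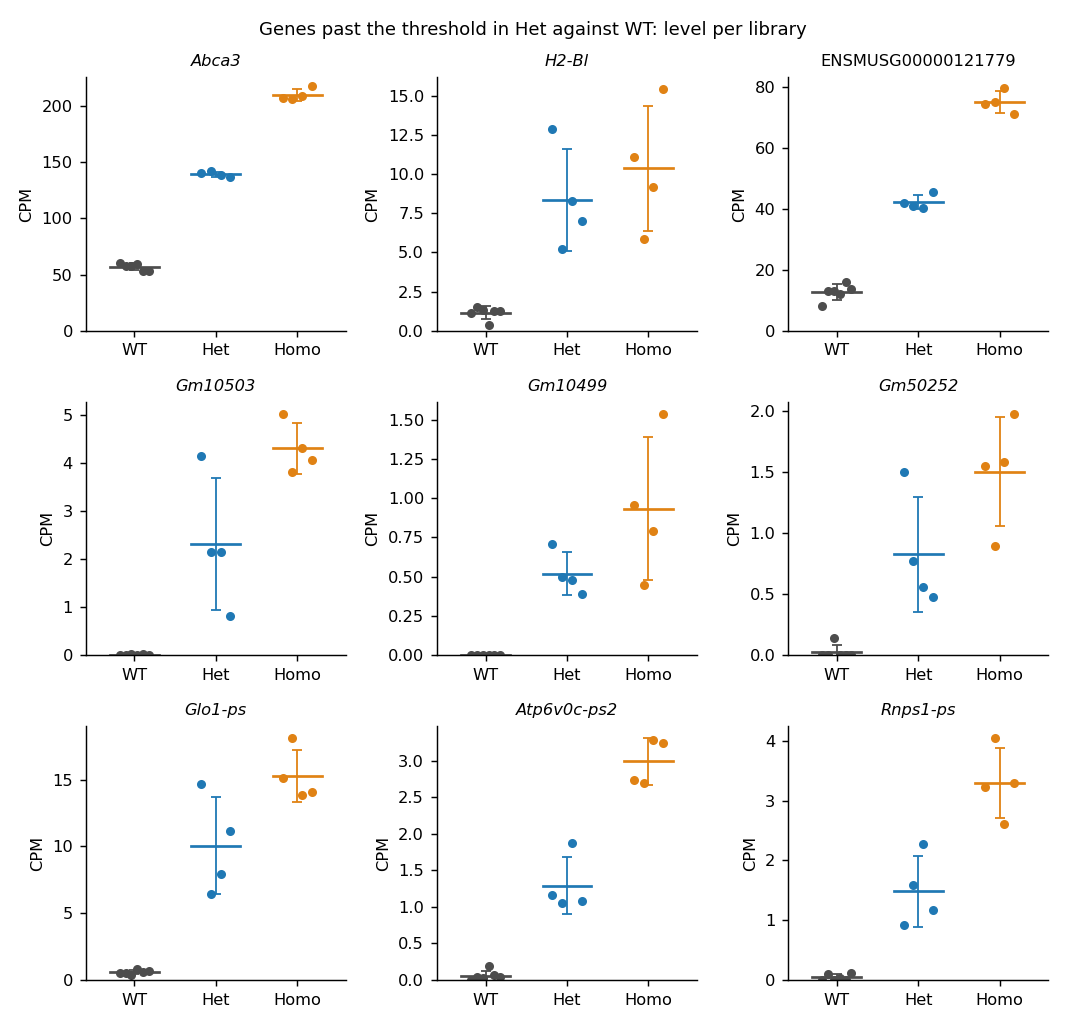
Level in CPM (vertical axis, linear, from 0) of the 9 genes past the threshold in Het against WT, 1 point per library for 6 WT, 4 Het and 4 Homo libraries. Horizontal lines are means and bars are 1 SD. No Het library overlaps a WT library in any of the 9 panels, and the 4 Het libraries of Abca3 sit between 136.6 and 142.1 CPM.

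The shares on chromosome 17 were also higher by looser criteria. At an unadjusted p under 0.05 it had 85 of its 753 tested genes (11.3%), where all genes gave 4.67%, all genes but those of chromosome 17 gave 4.34%, and each of the 19 other chromosomes with a bar in the plot by chromosome gave between 2.14% and 5.41%. In 35 of the 753 (4.65%) the 4 Het libraries lay all above or all below the 6 WT libraries, where the share was 1.2% over all genes and 1.04% off chromosome 17. Among those 19 chromosomes the highest shares were 2.30% on chromosome 18 and 2.03% on chromosome 7. The Y chromosome, with few tested genes, has no bar. Of the 35 genes, 24 were higher (3.19%) and 11 lower in Het (1.46%), where the shares over all genes were 0.697% and 0.506%. These counts include the 5 chromosome 17 genes past the adjusted threshold. Among the 748 that were not, 80 (10.7%) had an unadjusted p under 0.05 and 30 (4.01%) had no overlap, against 4.32% and 1.01% of the 15444 such genes elsewhere. The strain of either copy of chromosome 17 is not given in the sources used here, so the Pkd1 allele and the sequence that flanks it cannot be told apart in these values.

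**Figure D2:**
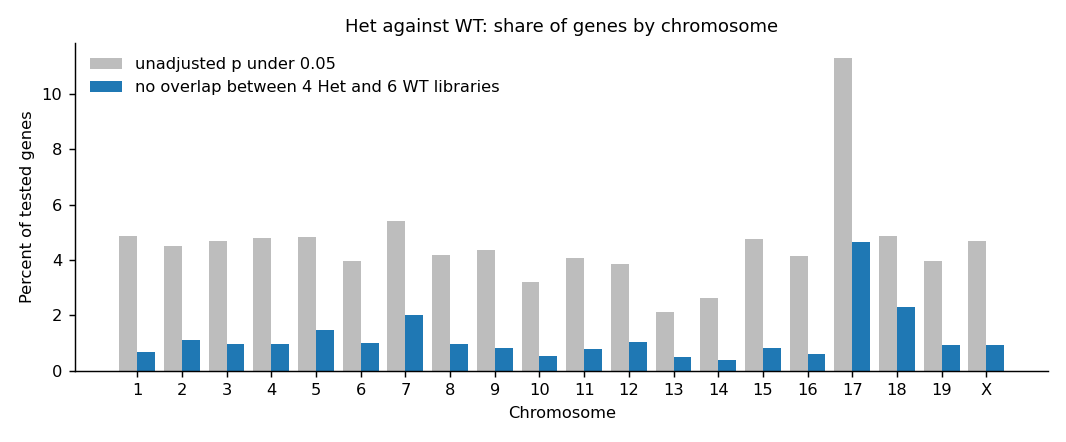
Percent of tested genes on each chromosome (bars from 0) with an unadjusted edgeR p under 0.05 in Het against WT (grey), and with no overlap between the 4 Het and the 6 WT libraries in CPM (blue). Chromosome 17 reaches 11.3% and 4.65%, and no other chromosome shown passes 5.41% and 2.30%. The Y chromosome, with few tested genes, is not shown.

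The 10 named chromosome 17 genes nearest to the threshold were higher in Het for Meiob, Pla2g7, Glo1, H2-T24, Rcan2 and Btbd9 and lower for Tedc2, Riok2, Adgrf1 and Gfer. With DESeq2, 8 of the 10 passed the threshold, all but Gfer and Btbd9. Tedc2, a partner of the delta and epsilon tubulins of the centriole, had the smallest p of them. It was at 53.3, 48.1, 56.3 and 64.2 CPM in Het and between 86.5 and 104.1 CPM in WT, with no overlap (log2 fold change -0.75, SE 0.131; edgeR adjusted p = 0.0645), and its Homo mean was 22.8 CPM. With only the WT and Het libraries in the fit its adjusted p was 0.00547 (edgeR). Riok2, a kinase of ribosome small subunit assembly, was at 19.0, 21.1, 18.7 and 19.6 CPM in Het and between 22.8 and 27.7 CPM in WT (log2 fold change -0.37, edgeR adjusted p = 0.0933). Gfer, the sulfhydryl oxidase also called augmenter of liver regeneration, was between 19.6 and 21.4 CPM in Het and between 22.8 and 30.3 CPM in WT (log2 fold change -0.32, edgeR adjusted p = 0.465). Neither these 3 genes nor Adgrf1 overlapped between the groups. Adgrf1, an adhesion receptor, was between 5.59 and 9.05 CPM in Het and between 11.7 and 21.7 CPM in WT (log2 fold change -1.14, edgeR adjusted p = 0.302).

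Among those higher, Glo1 was at 428.4, 263.8, 269.6 and 277.3 CPM in the 4 Het libraries and between 158.8 and 234.8 CPM in WT. Library 1 stood far above the other 3 Het libraries, which lay closer to the WT range (log2 fold change 0.68, SE 0.138; edgeR adjusted p = 0.154). Pla2g7, which inactivates platelet-activating factor, was at 8.68, 5.46, 6.09 and 4.01 CPM in Het and between 1.84 and 3.43 CPM in WT (log2 fold change 1.23, edgeR adjusted p = 0.0786). H2-T24, a non-classical class I gene, was at 9.98, 4.37, 6.01 and 6.63 CPM in Het and between 2.08 and 4.02 CPM in WT (log2 fold change 1.10, edgeR adjusted p = 0.202). Rcan2, a regulator of the phosphatase calcineurin, was at 7.35, 5.91, 4.62 and 5.34 CPM in Het and between 2.34 and 3.68 CPM in WT (log2 fold change 0.88, edgeR adjusted p = 0.288). In each of these genes Het library 1 was the highest of the 4. Meiob, a meiotic recombination factor, was at 7.55 CPM in Het library 1 and between 4.83 and 5.05 CPM in the other 3, against 1.88 to 3.96 CPM in WT (log2 fold change 1.05, edgeR adjusted p = 0.0697). Btbd9, a BTB domain protein, was at 28.3 CPM in library 1 and between 20.4 and 22.4 CPM in the other 3, against 17.9 to 20.5 CPM in WT (log2 fold change 0.31, edgeR adjusted p = 0.505).

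Along the chromosome, the 753 tested genes were taken in gene order, in which Pkd1 is number 150, and in runs of 50. The share of genes with no overlap between Het and WT was 10% in the run that ends with Pkd1 and 22% (11 of 50) in the run from H2-T23 to Polh, which holds H2-Bl and other class I genes. It was between 2% and 6% in the other runs up to there, and between 0% and 2% in every run from Xpo5 to the end of the chromosome.

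The Het libraries were then placed between the WT mean, set to 0%, and the Homo mean, set to 100%, at the 28 chromosome 17 genes that passed the threshold in Homo against WT. That comparison shares the WT libraries with this one, so the scale is a description of single libraries only. At Abca3 the 4 Het libraries lay at 54.3%, 55.7%, 53.3% and 52.1%, and at Tedc2 at 56.8%, 64.1%, 52.5% and 41.5%. They lay close together at Abca3 and less so at Tedc2. At Pkd1 itself, also among the 28, they lay far apart, at 33.8%, 70.3%, 23.1% and -20.2%. Of the 5 genes after Pkd1 and before Btbd9, library 1 was the highest at 2, Meiob (101.9%, the others between 44.7% and 49.4%) and Decr2 (79.6%, the others between 24.1% and 38.7%). At the 13 genes from Btbd9 to Rcan2 it was the highest of the 4 at every one, and above 100% at 8. It lay at 141.8% for Btbd9, 121.5% for Glo1, 116.0% for H2-T24, 127.0% for H2-Bl, 142.6% for Rnf39, 129.5% for Gm8909, 143.2% for Pla2g7 and 120.8% for Rcan2. At the other 5 it lay lower, at 62.2% for H2-T10, 75.9% for Gm10499, 81.0% for Zfp955b, 96.2% for Gm10503 and 99.9% for Gm50252. The other 3 Het libraries lay between 15.5% and 86.4% over these 13 genes. Toward the start of the chromosome the order turned for several genes: Het library 1 lay at 11.7% for Dynlt1b, -23.3% for Dynlt2a2 and 2.44% for Ermard, below the other 3 at each of them. The gene model Gm6475, still nearer to the start, went the other way, with library 1 at 161.5%, on levels under 1.4 CPM. Decr2, Zfp955b, Gm8909, Rnf39, Dynlt1b, Dynlt2a2, Ermard and Gm6475, and the stretch from Btbd9 to Rcan2, were chosen after their values were seen.

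**Figure D3:**
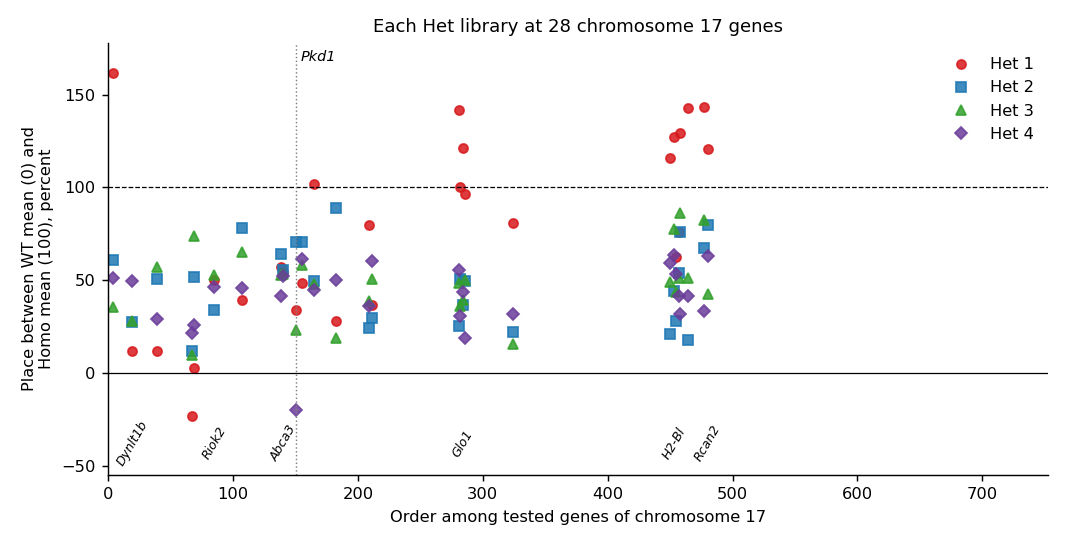
Each Het library (4 colours and marker shapes) at 28 chromosome 17 genes, placed between the WT mean (0 on the vertical axis) and the Homo mean (100, dashed), in percent. The horizontal axis is the order among the 753 tested genes of the chromosome, with Pkd1 at 150 (dotted line). Het library 1 lies above 100 at 8 of the 13 genes from Btbd9 to Rcan2, while the other 3 stay at 86.4 or below there.

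Without Het library 1, 46 of 767 tested genes of chromosome 17 (6.0%) had no overlap between the 3 remaining Het and the 6 WT libraries, against 401 of 15806 other genes (2.54%), and 4 genes of chromosome 17 and 4 others were past the adjusted threshold (edgeR).

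Off chromosome 17, 12 genes higher and 12 lower in Het were named by their p-value, and none of these 24 passed an adjusted p of 0.05 in the edgeR fit used throughout. With DESeq2 8 of them did, in edgeR without the count filter 3 (Col1a1, Gpat3 and Iffo2), and with the replicate block 1 (Col1a1). The 2 chains of type I collagen were among the first. Col1a1 was at 20.3, 21.9, 24.97 and 17.5 CPM in Het and between 11.2 and 16.0 CPM in WT (log2 fold change 0.66, SE 0.124; edgeR adjusted p = 0.0925). Col1a2 was at 20.5, 21.9, 22.8 and 19.0 CPM in Het and between 12.8 and 16.7 CPM in WT (log2 fold change 0.44, SE 0.0854; edgeR adjusted p = 0.0949). All 4 Het libraries were above all 6 WT libraries for both, and both were past the threshold in DESeq2 (adjusted p = 0.00106 and 0.00374). Their Homo means, 15.6 and 16.8 CPM, were nearer to the WT means of 13.4 and 15.5 CPM.

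Wdr59, a subunit of the GATOR2 complex that senses amino acids upstream of mTORC1, was at 13.2, 14.1, 13.4 and 11.8 CPM in Het and between 9.27 and 10.6 CPM in WT (log2 fold change 0.40, edgeR adjusted p = 0.0925). Dhcr7, which makes cholesterol from 7-dehydrocholesterol, was at 95.4, 98.6, 90.4 and 83.5 CPM in Het and between 56.7 and 77.1 CPM in WT (log2 fold change 0.41, SE 0.0844; edgeR adjusted p = 0.161). Neither overlapped between the groups. Gpat3, which adds the first acyl chain in triglyceride synthesis, had the largest log2 fold change of the 24. It was at 5.47, 6.32, 8.60 and 8.79 CPM in Het, at 4.07 CPM in WT library 1 and between 0.614 and 1.78 CPM in the other 5 (log2 fold change 2.29, SE 0.559; edgeR adjusted p = 0.434). Its Homo libraries ran from 0.613 to 7.67 CPM. Hmga1b, on chromosome 11, is 99.8% identical to Hmga1, a chromatin protein gene of chromosome 17, over 98.5% of its transcript. It averaged 3.57 CPM in Het and 1.27 CPM in WT (log2 fold change 1.47, edgeR adjusted p = 0.420), and Hmga1, chosen after its values were seen, 8.39 CPM in Het and 13.0 CPM in WT (log2 fold change -0.63, edgeR adjusted p = 0.699). The others were Wwtr1, the transcriptional co-activator TAZ, the myeloid lectin Clec4n, the protocadherin Pcdh17, the tRNA enzyme Dus2, the vitamin C transporter Slc23a1 and Col3a1, with log2 fold changes from 0.30 for Wwtr1 to 0.77 for Clec4n.

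On the lower side Iffo2, an intermediate filament family gene, came first. It was at 20.1, 15.7, 15.05 and 16.9 CPM in Het and between 23.05 and 33.5 CPM in WT, with no overlap (log2 fold change -0.67, SE 0.140; edgeR adjusted p = 0.169), and its Homo mean was 26.8 CPM. Rchy1, a ubiquitin ligase of p53, was between 8.88 and 9.73 CPM in Het and between 11.3 and 12.8 CPM in WT (log2 fold change -0.38, edgeR adjusted p = 0.202). Eif2s3y, the Y-linked gene for a subunit of translation factor eIF2, was at 25.3, 25.9, 33.1 and 29.0 CPM in Het and between 33.2 and 41.0 CPM in WT (log2 fold change -0.36, edgeR adjusted p = 0.350). Its Homo mean was 35.0 CPM. The labels give no sex, but this Y chromosome gene was read at 25.3 CPM or more in every library, as in male animals. Tbx3, a transcription factor of the Wnt-responsive zone around the central vein, was at 34.2, 29.3, 24.4 and 24.3 CPM in Het and between 32.4 and 52.8 CPM in WT, so that 1 Het library overlapped (log2 fold change -0.62, edgeR adjusted p = 0.565). The list of pericentral Wnt genes had 8 of 18 measured members higher and 10 lower, with a median log2 fold change of -0.0141. The others were Hspa5, described below, Ngrn, Zfp606, Tab1, Tent5a, Eef2kmt, Scfd1 and Ets2, with log2 fold changes from -0.64 for Tab1 to -0.31 for Ets2.

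Gene lists were then described by their counts, beside the same counts over all tested genes, of which 8100 of 16201 were higher in Het and 4.67% had an unadjusted p under 0.05. H2-Bl was the only member of any list past the adjusted threshold (edgeR). Cholesterol synthesis, the pathway from acetyl-CoA through mevalonate and lanosterol that the transcription factor SREBP2 switches on when sterols are low, had 23 of 25 members higher in Het, 13 with an unadjusted p under 0.05 and a median log2 fold change of 0.26. Beside Dhcr7, Cyp51, which demethylates lanosterol, was at 168.2, 223.1, 153.7 and 181.4 CPM in Het and between 126.6 and 151.6 CPM in WT, with no overlap (log2 fold change 0.38, SE 0.101; edgeR adjusted p = 0.594). Sqle, which makes squalene epoxide, was at 99.6 CPM in Het library 2 and between 63.0 and 67.1 CPM in the other 3, against 48.0 to 64.2 CPM in WT (log2 fold change 0.40, edgeR adjusted p = 0.693). The median over the list, as a log2 difference from the WT mean, was 0.10, 0.51, 0.15 and 0.28 in the 4 Het libraries and ran from -0.27 to 0.19 in WT. Library 2 was the highest, and libraries 1 and 3 were inside the WT range. With each library left out in turn and in the other fits the median stayed between 0.204 and 0.337. Against the same WT libraries, Homo had 22 members higher and a median of 0.19.

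The chaperones and quality control genes of the endoplasmic reticulum (ER), which the unfolded protein response raises when secretory proteins misfold, lay the other way. Of 21 members 19 were lower in Het, 9 with an unadjusted p under 0.05, with a median log2 fold change of -0.15. Hspa5, the main ER chaperone BiP, was at 488.7, 556.1, 412.4 and 421.1 CPM in Het and between 522.6 and 658.1 CPM in WT (log2 fold change -0.39, SE 0.101; edgeR adjusted p = 0.552). Syvn1, the ubiquitin ligase of ER-associated degradation, was at 77.2, 85.8, 60.1 and 62.4 CPM in Het and between 88.0 and 120.0 CPM in WT, with no overlap (log2 fold change -0.45, edgeR adjusted p = 0.735). Creld2, a small ER stress protein, was at 29.5, 46.6, 21.7 and 24.7 CPM in Het and between 35.3 and 58.4 CPM in WT (log2 fold change -0.71, edgeR adjusted p = 0.843). Libraries 3 and 4 were the lowest for all 3 genes. The list median was -0.0819, -0.0634, -0.30 and -0.32 in the 4 Het libraries and ran from -0.21 to 0.17 in WT, so that libraries 3 and 4 lay below every WT library and the other 2 did not. Xbp1, a transcription factor of the response, had means of 229 CPM in Het and 237 CPM in WT.

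Many of these genes are known to share a promoter element, the ER stress response element (ERSE), bound by NF-Y at its CCAAT end and by ATF6 at its CCACG end. The 250 bases before the start, from the RefSeq promoter table for GRCm38.p6, were matched for 18 of the 21 members and searched on both strands for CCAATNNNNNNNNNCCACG. The match was found in 8 of 18 (44.4%), against 35 of 27025 genes in the table (0.130%). Of the 8 members with a match 7 were lower in Het (median log2 fold change -0.17), and of the 10 without one 9 were lower (median -0.14). An unadjusted p under 0.05 (edgeR) was found for 4 of the 8 with a match and 2 of the 10 without. With nearly all members lower on both sides, direction could not separate members with a match from those without. The part of the match was not tested. The 250 bases before the start are printed for the 3 members with the smallest p, with the ERSE match in capitals. All 3 genes lie on the plus strand. The match is on the gene's own strand for Hspa5 (chr2:34771840-34772089) and Syvn1 (chr19:6046326-6046575) and on the opposite strand for Creld2 (chr15:88819396-88819645).
Hspa5: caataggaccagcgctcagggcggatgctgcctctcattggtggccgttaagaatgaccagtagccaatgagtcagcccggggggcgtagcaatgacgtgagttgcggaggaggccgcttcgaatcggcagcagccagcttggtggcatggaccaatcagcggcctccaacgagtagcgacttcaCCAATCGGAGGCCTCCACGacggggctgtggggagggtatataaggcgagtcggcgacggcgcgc
Syvn1: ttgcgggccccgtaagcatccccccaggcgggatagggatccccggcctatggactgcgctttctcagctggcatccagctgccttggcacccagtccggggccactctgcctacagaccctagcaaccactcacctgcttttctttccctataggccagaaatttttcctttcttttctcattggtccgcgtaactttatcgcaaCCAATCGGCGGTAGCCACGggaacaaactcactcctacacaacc
Creld2: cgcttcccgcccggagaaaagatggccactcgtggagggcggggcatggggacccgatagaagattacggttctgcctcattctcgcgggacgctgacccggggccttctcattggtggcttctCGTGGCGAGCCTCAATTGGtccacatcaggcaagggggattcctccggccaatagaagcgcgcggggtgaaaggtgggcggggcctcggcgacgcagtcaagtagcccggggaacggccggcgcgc

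A promoter without a match lacks only these letters in this window. SREBP2 acts through a different element, and its common form TCACNCCAC (both strands) was found in 1 of 17 cholesterol genes with a promoter in the table, Hmgcs1, and in 1.22% of all genes. Hmgcs1, an early enzyme of the pathway chosen after its values were seen, had means of 231 CPM in Het and 150.0 CPM in WT (log2 fold change 0.63, SE 0.233).

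**Figure D4:**
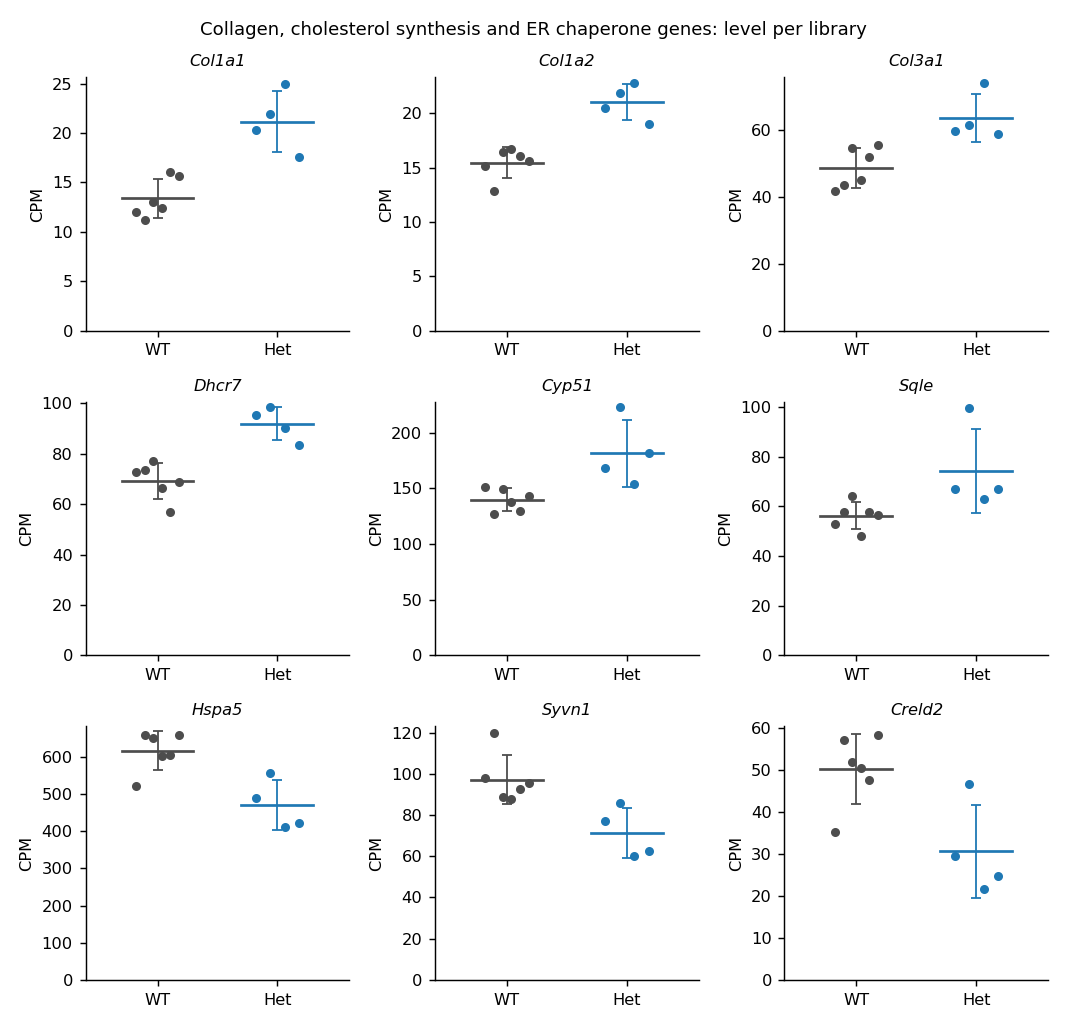
Level in CPM (vertical axes, linear, from 0) of 3 fibrillar collagen genes, 3 cholesterol synthesis genes and 3 ER genes, 1 point per library for 6 WT and 4 Het libraries, with means as lines and 1 SD as bars. The Het points lie above all WT points for Col1a1, Col1a2, Col3a1, Dhcr7 and Cyp51 and below all WT points for Syvn1, and the groups overlap for Sqle, Hspa5 and Creld2.

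The list of collagens and matrix genes had 25 of 29 measured members higher in Het, 6 with an unadjusted p under 0.05 and 4 (Col1a1, Col1a2, Col3a1 and Col5a2) with no overlap, where every Het library was above WT in 0.697% of all tested genes. The median log2 fold change was small, 0.0916. By library the list median was 0.0577, 0.0987, 0.32 and 0.14 in Het and ran from -0.22 to 0.17 in WT, so that library 3 alone lay above the WT range. Over the alternative fits, those without each library included, the median log2 fold change ran from 0.053 to 0.136. Library 3 was also the highest Het library for the medians of the mesothelial markers (0.77, WT from -1.50 to 0.42) and the sinusoidal endothelium markers (0.17, WT from -0.15 to 0.0971), above every WT library in both. The same held for the urea cycle and periportal list (0.32, WT up to 0.15) and the bile acid list (0.15, WT up to 0.0875). The mesothelial markers were low, with sums from 1.77 to 5.22 CPM in Het and from 1.56 to 4.41 CPM in WT. Col3a1, the main chain of type III collagen, was at 59.8, 61.6, 74.3 and 59.0 CPM in Het and between 41.8 and 55.5 CPM in WT (log2 fold change 0.38, edgeR adjusted p = 0.462). Het library 3 was the highest for all 3 named chains. Hepatic stellate cells are the main source of these collagens. Of the 12 stellate markers measured, 7 were higher and 5 lower in Het, with a median log2 fold change of 0.0121, and their summed level ran from 345 to 492 CPM in Het and from 360 to 510.2 CPM in WT. Pdgfrb, a stellate growth factor receptor, had the smallest p of them (9.84 CPM in Het, 8.23 CPM in WT; log2 fold change 0.26, edgeR adjusted p = 0.892). The TGF-beta and fibrogenic signalling list had 14 of 22 higher, with a median of 0.0386. Among the markers of smooth muscle and portal fibroblasts 4 of 9 were higher, with a summed level of 15.9 to 18.5 CPM in Het and 14.5 to 19.8 CPM in WT, and Gli1 did not pass the count filter. The part of these cells in the collagen values was not tested.

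The major urinary proteins, pheromone carriers that male mouse liver secretes in bulk under growth hormone, had 14 of 22 members higher, 9 with an unadjusted p under 0.05 in either direction and a median log2 fold change of 0.37. The spread among WT animals was wide, with list medians from -0.73 to 0.68 there and from 0.22 to 0.63 in Het, inside the WT range. Mup16 averaged 464 ± 193 CPM in Het (SD, n = 4) and 139 ± 74.4 CPM in WT (SD, n = 6), and Mup8 33.6 ± 23.9 and 12.5 ± 6.09 CPM (log2 fold changes 1.74 and 1.43, edgeR adjusted p = 0.830 and 0.699). These genes are near-identical copies in a cluster on chromosome 4, so the authors' counting could split their reads, and the single values are uncertain. The male-biased list, which holds some of them, had 15 of 19 higher (median 0.16), and the female-biased list 6 of 8 measured members lower (median -0.73), with 10 of its 18 genes under the count filter. By library the female-biased median was -0.93, -0.51, 0.27 and -0.83 in Het and ran from -0.64 to 1.04 in WT. Over the alternative fits it ran from -1.37 to -0.0950. The female-biased Cyp2a4 averaged 0.344 CPM in Het and 3.09 ± 4.11 CPM in WT (log2 fold change -3.12, edgeR adjusted p = 0.998). In WT it was at 6.87 CPM in library 2 and 9.67 CPM in library 4, and at 0.869 CPM or below in the others.

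The acute phase list, plasma proteins that the liver makes in inflammation, had 20 of 22 members higher and a median log2 fold change of 0.32, but 0 members with an unadjusted p under 0.05 (edgeR). The excess sat mostly in Het library 2, whose list median was 1.06, while library 1 was at 0.32 and libraries 3 and 4 at -0.0234 and 0.00371. The WT libraries ran from -0.37 to 0.47. Without Het library 2 the median was 0.0592. The neutrophil markers, of which 4 of 10 passed the filter, summed to between 2.35 and 8.01 CPM in Het and between 1.65 and 6.64 CPM in WT.

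In lipid and energy metabolism, the fatty acid oxidation genes under PPARalpha had 27 of 29 measured members lower, but 1 with an unadjusted p under 0.05. The list median was -0.12. Lipogenesis genes under SREBP1c had 14 of 19 lower (median -0.13, and -0.256 without Het library 4, where Pnpla3 was high). Heat shock chaperones had 17 of 20 lower (median -0.0998), with Het libraries 1 and 3 at -0.29 and -0.32 and libraries 2 and 4 inside the WT range. Urea cycle and periportal genes had 14 of 16 higher, with a median of only 0.0570. By library the median of this list was 5.7e-04, -0.0171, 0.32 and -0.0147 in Het and ran from -0.10 to 0.15 in WT. Library 3 alone lay above the WT range. The lipid droplet enzyme Hsd17b13, in the same list, was at 62.9 CPM in Het library 4 and between 151 and 166 CPM in the other 3, below all WT libraries (134 ± 47.7 against 236 ± 26.5 CPM; log2 fold change -0.82, edgeR adjusted p = 0.977).

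Pathways tied to polycystin 1 showed no common direction. The polycystic disease and cilium list had 14 of 23 measured members higher, with 4 at an unadjusted p under 0.05, Arl13b and Ift140 higher and Ift20 and Pkd2 lower, and a median of 0.0382. The lists of mTORC1 (18 of 30 higher, median 0.0238), calcium signalling (11 of 21, median 0.0173), YAP targets (8 of 16, median 0.0166) and cell cycle (15 of 24, median 0.0733, and -0.0444 without Het library 1) each had 1 or 2 members at an unadjusted p under 0.05. Cholangiocyte markers, the bile duct cells that line liver cysts, had 7 of 10 measured members higher, and their summed level ran from 243 to 540.0 CPM in Het and from 161 to 616 CPM in WT. Sox9, a duct and progenitor factor, averaged 5.24 CPM in Het and 7.39 CPM in WT (log2 fold change -0.50, edgeR adjusted p = 0.998), and Cldn7, Cftr and Sctr were among the markers that did not pass the filter.

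Both lists for antigen presentation lie mostly on chromosome 17. Of the 21 class I and peptide loading genes, 19 of them there, 16 were higher and the median was 0.0753. In 3 (H2-Bl, H2-T24 and H2-T10) every Het library was above WT, where the share was 0.697% of all genes and 3.19% of chromosome 17 genes. In 1, H2-T23, named after its values were seen, every Het library was below WT (84.8 CPM in Het and 98.0 CPM in WT on average), where the shares were 0.506% and 1.46%. Of the 9 class II genes measured, 7 of them on chromosome 17, 6 were lower (median -0.31), led by library 4 at -0.74. The difference between these lists was not tested. The interferon response had 17 of 25 lower (median -0.0721). Ribosomal proteins (20 of 40 higher, median -8.82e-04), oxidative phosphorylation (9 of 27 higher, median -0.0237) and bile acid genes (10 of 20 higher, median 8.31e-04) stayed close to the median of all genes. Kupffer cell and sinusoidal endothelium markers each had 8 of 13 higher, with medians of 0.0131 and 0.0312. Of the 14 lymphocyte markers 8 were measured, and 5 of these were higher. The T cell genes Cd3d, Cd8a and Trac were among those that did not pass the filter. Cd3e had the smallest p, with 16.9 CPM in Het and 11.7 CPM in WT (log2 fold change 0.53, edgeR adjusted p = 0.998). Its WT mean was lowered by library 1, at 3.93 CPM, where the other WT libraries ran from 12.6 to 14.2 CPM.

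**Figure D5:**
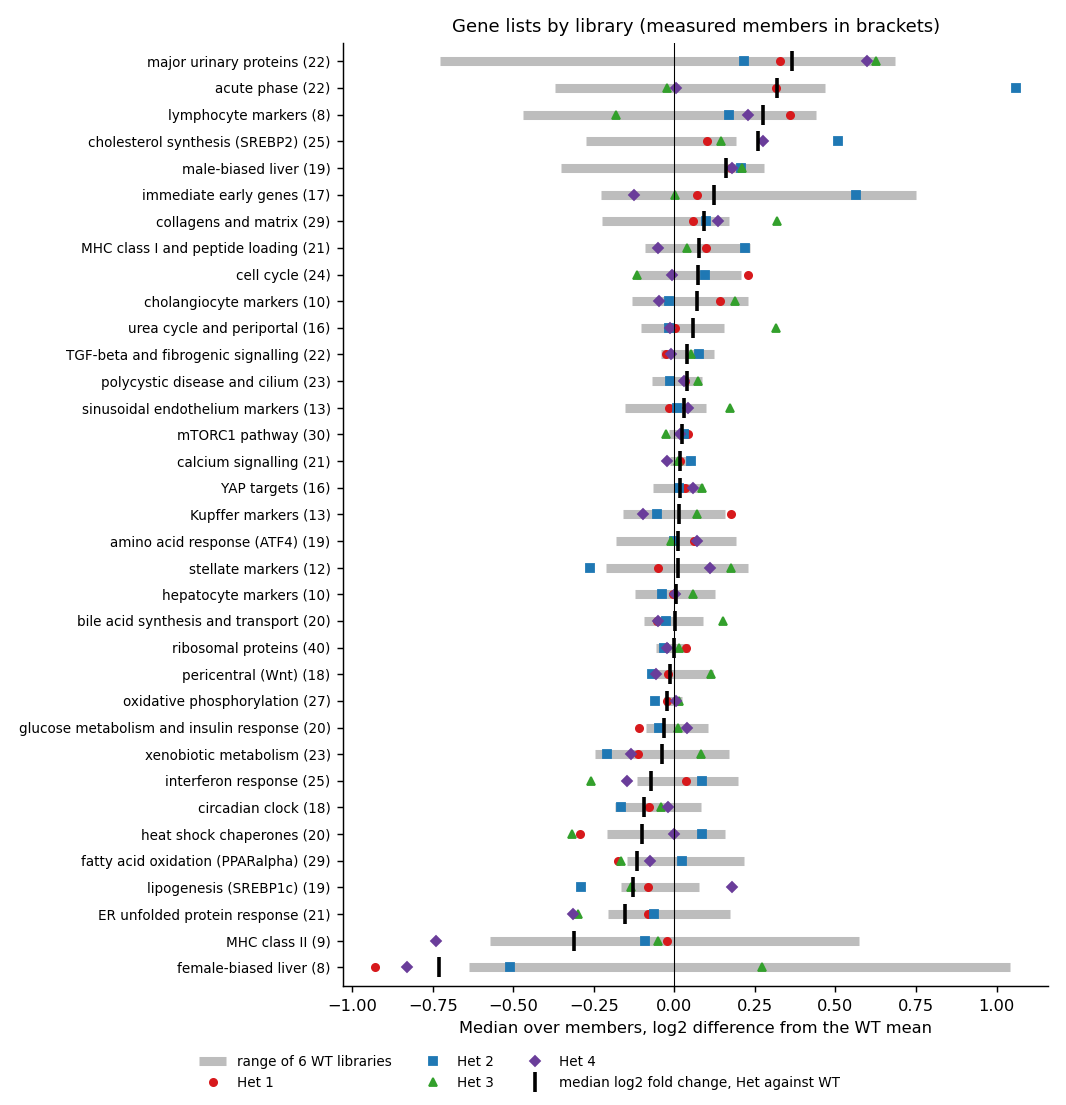
Median over the measured members of each gene list (number in brackets), as a log2 difference from the WT mean: grey bars span the 6 WT libraries, coloured markers are the 4 Het libraries, and black ticks are the median log2 fold change of the list. No list has all 4 Het libraries outside the WT range. The cholesterol list is above that range in libraries 2 and 4, and the ER list is below it in libraries 3 and 4.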

How the data were processed

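The deposited table holds estimated counts per gene, made by the authors with STAR and Salmon on GRCm39, per the submitters' processing notes. Versions, annotation release and strand setting are not stated there. The RNA came from a Trizol extraction cleaned on RNeasy columns, and a NuGen Ovation mouse kit served for library preparation, per the labels' protocols. Between 6.36% and 8.59% of values per library were not whole (tolerance 0.01), and all were rounded. No pair of libraries held identical values (closest pair, chi-square per degree of freedom 24.9). The labels give 1 numbered animal per library and no batch, so p-values measure the spread between these libraries.

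Genes were kept with filterByExpr (count minimum 10, total minimum 15) and scaled with TMM. CPM are counts per effective library size. All 14 libraries entered 1 quasi-likelihood fit in edgeR 4.0.16 (R 4.3.3), with the contrast Het against WT and Benjamini-Hochberg adjustment over all tested genes, after tests on simulated data. Alternatives were DESeq2 1.42.0, other scalings, filters and samples, and each library left out. Single values were compared with exact permutation tests in SciPy 1.17.1 (two-sided, as the smaller tail counted for both sides), whose smallest p for 4 against 6 is 0.00952. Floors and intervals of counts cover counting error only.

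Chromosome and gene order came from GENCODE M21 (GRCm38), which placed 15613 of the 16201 tested genes. No coordinates are taken from it. Copies were matched to their parents with BLAST 2.17.0 between its transcripts. Promoters came from RefSeq (GRCm38.p6).

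Named were Pkd1, Pkd2, every called gene, the 10 uncalled genes of chromosome 17 and the 12 higher and 12 lower elsewhere with the smallest p (mean of at least 1 CPM, symbol not a model name), and the 3 members of each of 41 gene lists with the smallest p. Members of lists named in groups, and genes so marked, were chosen after their values were seen. Some genes that the rule names are not reported here. The comparison, the lists and the rule were chosen with earlier results of these data known.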

Additional observations from a re-analysis of the deposited data

Results flagged for a closer look

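In 30 of 312 groups of 4 or 6 libraries, over the 154 named genes, the total counts and the mitochondrial share, 1 library stood further from the rest of its group than Dixon's 95% limit allows. For normally distributed values chance gives about 1 group in 20. CPM need not be so distributed, and the genes were named partly by their p-values, so the count cannot be set against that rate. Neither a cause nor a shared source of these values was tested.

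In Het library 1, Glo1 (428 CPM, others up to 277) and Meiob (7.55 CPM, others up to 5.05) stood high. Both lie on chromosome 17. Het library 2 stood high for Sqle (99.6 CPM, others up to 67.1), the cilium gene Arl13b (15.7 CPM, others up to 10.8), the PPARalpha target Cyp4a10 (31.0 CPM, others up to 4.83) and the neutrophil gene S100a8 (2.37 CPM, others up to 0.319). It stood low for the transporter Abcc3 of the bile acid list (61.7 CPM, others from 86.4), the small chaperone Cryab (1.27 CPM, others from 2.39) and Thy1 (0.318 CPM, others from 0.793). Het library 3 stood high for Atp6v0c-ps2 (1.87 CPM, others up to 1.17). In Het library 4 the lipid droplet gene Pnpla3 was high (2.67 CPM, others up to 0.584) and Hsd17b13 low (62.9 CPM, others from 151).

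Among WT libraries, library 1 was high for Gpat3 (4.07 CPM), Uqcrc1 (145 CPM) and the macrophage gene Cd68 (10.2 CPM), and low for Pkd2 (12.8 CPM), Clec4n (0.799 CPM), Rps14 (18.5 CPM) and the T cell gene Cd3e (3.93 CPM, others from 12.6). Library 2 was high for Syvn1 (120.0 CPM) and library 3 for Gm50252 (0.146 CPM, others at 0). Library 4 was high for Atp6v0c-ps2 (0.192 CPM), Cyp4a10 (97.5 CPM, others up to 26.2) and the female-biased Cyp2c69 (37.4 CPM, others up to 7.22), and low for H2-Bl (0.345 CPM). Library 5 was high for the acute phase genes Hp (2578 CPM) and Fgb (4532 CPM), for S100a8 (1.44 CPM) and for Alas2 (71.5 CPM), and low for the endothelial gene Stab1 (47.6 CPM).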

How the results depend on the processing

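The count of 9 called genes became 32 with DESeq2 (25 higher and 7 lower; 17 on chromosome 17 and 15 elsewhere), 23 without a filter on low counts (20 higher and 3 lower; 14 and 9) and 4 with chromosome 17 genes left out. The robust fit called 8 on chromosome 17. RLE size factors, library totals alone, the stricter filter (at least 1 CPM in 4 libraries) and only WT and Het libraries gave between 8 and 10. With each library left out in turn the count ran from 8 to 10, with 4 to 6 on chromosome 17 and 4 to 5 elsewhere, and the count without overlap from 270 to 462, against 195, since fewer libraries overlap less. Pkd1 ran from -0.18 to -0.0484 on the log2 scale, and the mitochondrial share from -0.730 to -0.247 percentage points. The difference in total counts, -5992180, ran from -6956580 to -3819010, and its exact permutation p was 0.0714 without Het library 1 (-5912030), 2 (-5580810) or 4 (-5757870) and 0.0619 by absolute difference. A replicate block used the numbers that Het and WT libraries share. These do not pair the libraries (correlation of same-numbered deviations 0.180, -0.0399, -0.0735 and 0.0300), and the block called 3 genes on chromosome 17, with 6 of the 9 called genes kept. Signs turned for Hba-a2 (0.0769, block), Gpm6a (-0.0593, block; -0.0881 without Het library 1, up to 0.49 without another library), Cyp2c69 (0.0671 without WT library 4, down to -1.52), S100a8 (-0.77 without Het library 2, up to 1.26), Cela2a (-0.15 without Het library 2, up to 0.53) and Ighm (-0.0223 without Het library 4, up to 0.63); the cause was not tested. Chosen after seeing the data, leaving chromosome 17 members out of 17 lists moved no median by more than the spread between libraries; class I went from 0.0753 to -0.0100 over the 2 members left. At these depths the genes under 1 CPM rest on few counts.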

Other observations

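Single members of 3 lists are given here beside their lists. Slc10a1, the main bile acid uptake carrier of hepatocytes, averaged 338 ± 19.1 CPM in Het (SD, n = 4) and 378 ± 8.80 CPM in WT (SD, n = 6) with no overlap, while 10 of the 20 bile acid genes were higher and 10 lower (log2 fold change -0.16, edgeR adjusted p = 0.998). Asns, asparagine synthetase, a target of ATF4, averaged 2.18 ± 1.15 and 1.22 ± 0.305 CPM, in a list with 10 of 19 members higher (log2 fold change 0.84, edgeR adjusted p = 0.998). Moxd1, a male-biased liver gene of the monooxygenase family, in a list with 15 of 19 members higher, averaged 53.8 ± 33.1 CPM in Het and 11.8 ± 9.90 CPM in WT, with a Homo mean of 3.08 CPM (log2 fold change 2.18, SE 0.863, edgeR adjusted p = 0.998).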
